A study of Mus musculus with 9 samples.

Results

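The collagen and laminin chains are the genes that encode the subunits of the collagens and laminins, the main structural proteins of the extracellular matrix. They were taken from the deposited table of kidney genes by name: Col, a number, a and a number, or Lama, Lamb or Lamc and a number. This gave 55 of 23420 gene rows, 44 collagen chains and 11 laminin chains. RNA sequencing had been done on kidney cortex from 9 male C57/BL6 mice, 4 fasted for 16 h and 5 fed ad libitum, all on chow and a light-dark cycle, with 1 library per mouse. The labels name no transgene, drug or batch, and they give no age and no hour of collection. The comparison asked which chains differed between fasted and fed kidneys, and how the chains of the basement membrane compared with those that form fibrils.

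Basement membranes are thin sheets under epithelia and around capillaries, muscle cells and glomeruli. They are built from a laminin network and a type IV collagen network that nidogens and heparan sulfate proteoglycans join. Each laminin is a trimer of an alpha, a beta and a gamma chain, and each collagen is a trimer of chains that share the Gly-X-Y repeat. The glomerular basement membrane of the mature kidney is known for the type IV chains alpha 3, alpha 4 and alpha 5 and for laminin alpha 5, beta 2 and gamma 1. Fibrillar collagens such as types I, III and V assemble into the fibrils of the interstitium and of vessel walls, and they are the chains known to accumulate in renal fibrosis.

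The values are normalized counts, that is, reads per gene divided by 1 size factor per library. The libraries held between 18902645 and 32469467 reads over genes. In the Fasted 1 and Fed 3 libraries 2.36% and 5.53% of normalized counts fell on the ribosomal RNA entry Rn45s, against 0.513% to 1.38% in the other libraries. Log2 changes are fasted over fed, from limma on log2(normalized count + 1) over the 15098 genes that averaged 10 or more normalized counts, and a gene was called at a Benjamini-Hochberg adjusted p under 0.05. Of the 55 chains 48 passed that filter. The 7 others were Col2a1, Col11a1, Col9a1, Col9a2, Col9a3, Col22a1 and Col28a1, known mostly from cartilage, muscle junctions and nerve. Just inside the filter stood Col6a5 with a mean of 13.7 normalized counts over the 9 libraries and just outside it Col28a1 with 8.23. In whole-tissue RNA, fewer cells of a type and less RNA per cell cannot be told apart.

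The start regions of 4 genes are shown because the results turn on these chains: Col15a1 carried the lowest change among basement membrane chains, Col27a1 the highest among fibrillar chains, Col13a1 the highest of all chains, and the Col4a4 window also holds the start of its partner Col4a3. Each run covers 250 bases before the start of the gene to 50 bases after it, from RefSeq on GRCm38.p6, written 5′ to 3′ on the strand of the gene. The starts are those of RefSeq. For Col15a1 the RefSeq start lies 149 bases before, and for Col27a1 1408 bases inside, the GENCODE gene bounds given with their values below, and for Col13a1 and Col4a4 both annotations share the start. In the Col15a1, Col27a1 and Col13a1 windows, capitals mark matches on either strand to the motif TATAAA, to the motif CCAAT or to the motif GGGCGG. In the Col4a4 window, capitals mark the 71 bases between the start of Col4a4 and the start of Col4a3, which is read in the opposite direction.
Col15a1 (chr4:47207762-47208061, plus strand): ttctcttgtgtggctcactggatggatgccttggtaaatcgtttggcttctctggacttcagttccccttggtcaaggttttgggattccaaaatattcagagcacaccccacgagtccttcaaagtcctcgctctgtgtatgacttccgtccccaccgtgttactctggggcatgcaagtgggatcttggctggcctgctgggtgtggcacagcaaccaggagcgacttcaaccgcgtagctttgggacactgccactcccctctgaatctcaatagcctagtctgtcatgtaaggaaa
Col27a1 (chr4:63215162-63215461, plus strand): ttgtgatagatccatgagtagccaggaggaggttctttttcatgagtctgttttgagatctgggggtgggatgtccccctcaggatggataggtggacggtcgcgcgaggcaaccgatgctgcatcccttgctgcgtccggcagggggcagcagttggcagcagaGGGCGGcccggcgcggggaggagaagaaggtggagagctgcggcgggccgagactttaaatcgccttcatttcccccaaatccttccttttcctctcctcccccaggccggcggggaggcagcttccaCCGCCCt
Col13a1 (chr10:61979059-61979358, minus strand): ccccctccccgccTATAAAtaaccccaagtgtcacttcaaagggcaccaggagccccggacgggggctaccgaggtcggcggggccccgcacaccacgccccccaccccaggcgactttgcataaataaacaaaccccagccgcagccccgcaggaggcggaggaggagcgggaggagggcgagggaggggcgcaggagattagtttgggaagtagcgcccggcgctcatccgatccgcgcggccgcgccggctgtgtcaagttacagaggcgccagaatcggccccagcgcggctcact
Col4a4 (chr1:82586800-82587099, minus strand): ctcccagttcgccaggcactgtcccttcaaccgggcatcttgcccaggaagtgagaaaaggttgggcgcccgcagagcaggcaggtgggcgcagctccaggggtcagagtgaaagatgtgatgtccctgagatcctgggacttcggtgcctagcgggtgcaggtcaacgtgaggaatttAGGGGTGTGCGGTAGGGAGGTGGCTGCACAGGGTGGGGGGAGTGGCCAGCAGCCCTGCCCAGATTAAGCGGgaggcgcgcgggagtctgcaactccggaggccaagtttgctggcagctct
The Col15a1 window held 0 of the 3 motifs, the Col27a1 window held 2 matches to GGGCGG and the Col13a1 window 1 match to TATAAA. The last of these motifs was found in 13.6% of all 32851 promoter windows in that table, CCAAT in 37.4% and GGGCGG in 35.7%. Overlapping matches were each counted. A direct repeat of AGGTCA with 1 base between its copies, the site type bound by PPAR receptors, was found in 0.0396% of windows, and AGAACA followed after 3 bases by TGTTCT, a glucocorticoid receptor site type, in 0.00913%. The forkhead motif TGTTTAC was found in 3.65% of windows. Of the 44 windows of 40 chains, 0 held either repeat and 1, that of Col6a1, held TGTTTAC. A match is a run of letters and not a measured binding site.

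In fasted kidneys 10 of the 48 tested chains passed the threshold, 4 higher and 6 lower than in fed kidneys. The chains called higher were Col13a1, Col27a1, Col8a1 and Lamb2, and the chains called lower were Col6a6, Col19a1, Col15a1, Col1a1, Col6a3 and Col7a1. Among all tested genes 11% were called, 5.72% higher and 5.25% lower. For 11 of the 48 tested chains the fasted and fed libraries did not overlap, 6 with all fasted libraries above and 5 below. Of all tested genes 14.3% were separated in this way. The untested Col28a1 was separated as well, at 9.78 to 14.4 normalized counts in fasted and 2.98 to 7.89 in fed libraries. The median log2 change was -0.11 over the chains, 17 positive and 31 negative, against 0.00089 over all tested genes. Without Fasted 1 and Fed 3 together, 6 chains were called, beside 7.07% of all tested genes. DESeq2 on the reads called 15 chains, beside 15.6% of all genes, and edgeR called 9, beside 11%. Annotated exons of Col15a1, Col6a6 and Col7a1 overlap those of another gene by 14, 63 and 36 bases, whose reads may be shared.

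**Figure D1:**
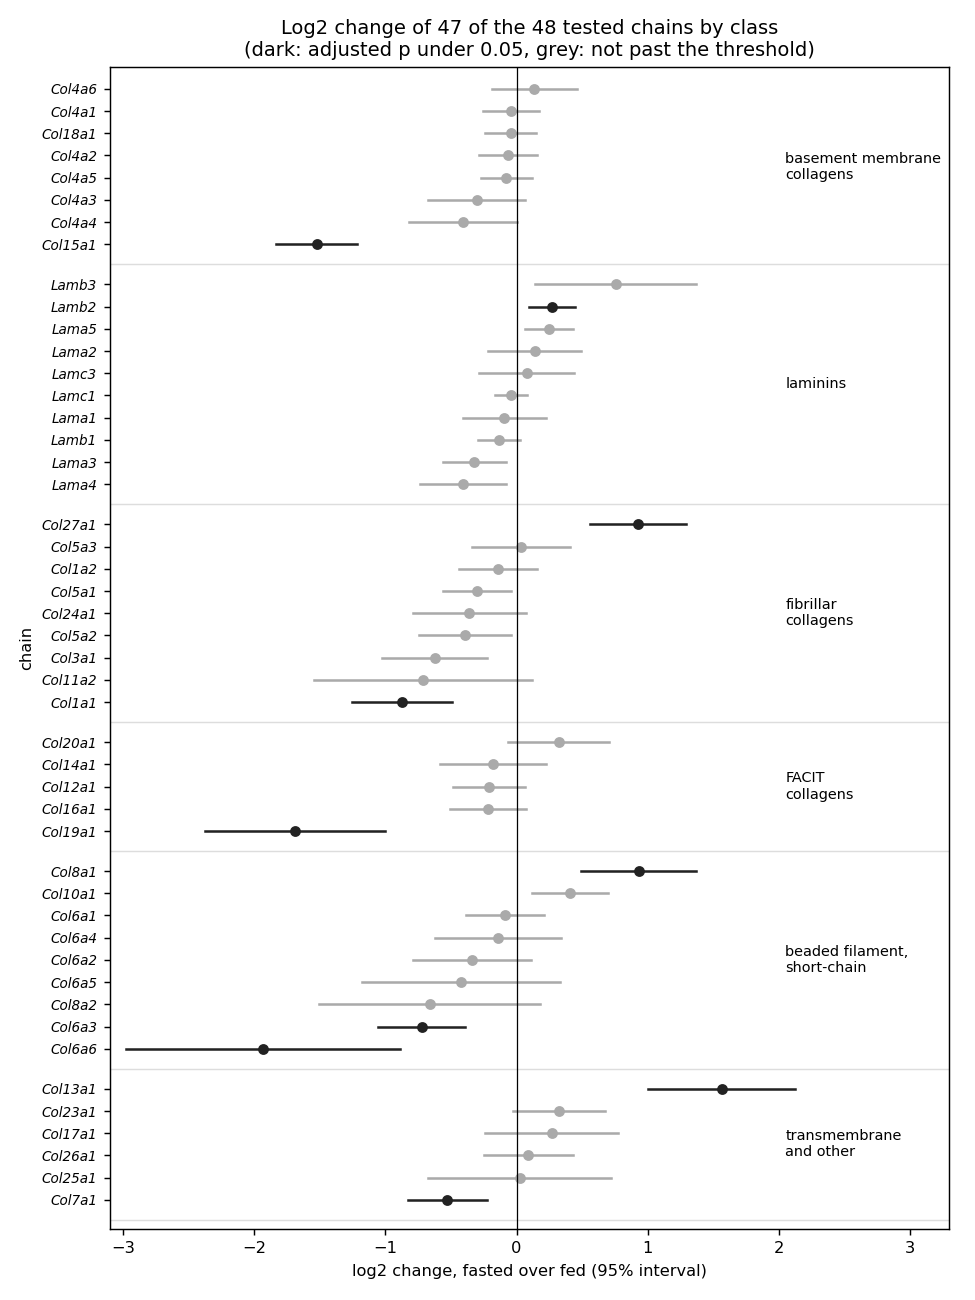
Log2 change in fasted over fed kidneys (points) with 95% intervals (lines) for 47 of the 48 tested chains, grouped by class from top to bottom and ordered within each class; dark marks have an adjusted p under 0.05. Of the type IV chains 5 of 6, and of the tested fibrillar chains 7 of 9, lie to the left of 0, and Col27a1 stands to the right at 0.93.

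The 6 type IV chains were the backbone of the basement membrane transcripts and none of them was called, by limma, edgeR or DESeq2, and 0 of the 6 had an unadjusted limma p under 0.05. In the authors' deposited table, Col4a3 and Col4a4 had unadjusted p-values of 0.045 and 0.016, with adjusted p-values of 0.17 and 0.080. Per kb of exon, Col4a1 was the most abundant of the 55 chains, with 1776 ± 153 normalized counts per kb in fasted and 1834 ± 221 in fed kidneys (SD, n = 4 and 5). Col4a1 and Col4a2 encode the alpha 1 and alpha 2 chains found in nearly all basement membranes. Their log2 changes were -0.04 (95% interval -0.26 to 0.17) and -0.06 (-0.28 to 0.15). The 2 genes lie head to head on chromosome 8 and their annotated exons overlap by 22 bases. Col4a2 stood at 60.5 to 67.1 normalized counts per 100 of Col4a1 in fasted libraries and at 62.2 to 72.9 in fed libraries, so the balance of the 2 chains overlapped between groups.

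Col4a3 and Col4a4, the glomerular chains whose loss causes Alport disease, lay lower in most fasted libraries without passing the threshold. Col4a3 had 14539, 12491, 14886 and 11932 normalized counts in the 4 fasted libraries and 18904, 17363, 22409, 14892 and 11357 in the 5 fed libraries. Col4a4 had 10255, 9736, 10567 and 8866 in the fasted and 13908, 12780, 21066, 9766 and 10339 in the fed libraries. For both chains Fed 3 was the highest library, and Fed 4 and Fed 5 lay within or near the fasted range. The log2 changes were -0.30 (95% interval -0.67 to 0.06, adjusted p = 0.27) and -0.41 (-0.82 to 0.0049, adjusted p = 0.19), and they shrank to -0.20 and -0.24 without Fed 3. Col4a3 passed in 1 of 21 alternative settings, without Fed 5 (adjusted p = 0.044). These 2 genes also lie head to head, on chromosome 1, with the 71 bases capitalized above between their starts. Annotated exons of Col4a3 overlap those of a gene on the opposite strand by 563 bases, and whether the counting used strand is not given in the sources used here.

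Col4a5, the third glomerular chain, had 398 ± 23.8 normalized counts per kb in fasted and 422 ± 47.6 in fed kidneys, and its log2 change was -0.08 (95% interval -0.27 to 0.12). Col4a6, which pairs with alpha 5 in Bowman's capsule, had 16.6 ± 2.04 and 15.2 ± 2.56 per kb, with a log2 change of 0.13 (-0.19 to 0.46). The order per kb was thus Col4a1, Col4a3, Col4a2, Col4a4, Col4a5 and Col4a6 over the 9 libraries. In fed kidneys each chain differed from its neighbour in this order by less than the larger SD of the pair down to Col4a4, and Col4a4 exceeded Col4a5 by more than that. In fasted kidneys Col4a1 exceeded Col4a3, and Col4a2 exceeded Col4a4, by more than the larger SD as well, while Col4a3 and Col4a2 did not differ by that much.

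**Figure D2:**
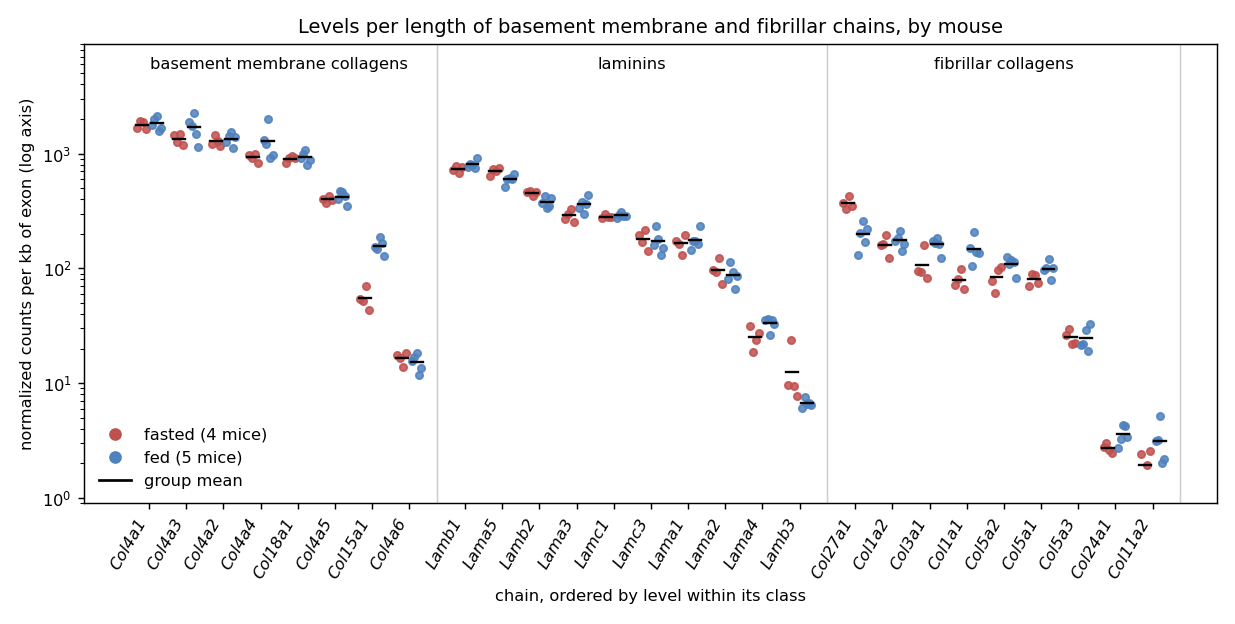
Normalized counts per kb of exon (log axis) in each mouse for basement membrane collagens, laminins and fibrillar collagens that were tested, 1 laminin left out, fasted to the left of fed for each chain; black bars are group means. Col4a1 to Col4a4 and Col18a1 stand highest, and Col15a1 shows the clearest gap between fasted and fed mice. Col27a1 has the highest mean of the fibrillar chains over all mice, with a smaller lead in fed mice.

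Col15a1 was lower in fasted kidneys while its relative Col18a1 was not called. These 2 genes encode the collagens of types XV and XVIII, proteoglycans of basement membrane zones whose ends can be released as endostatin-like fragments. Col15a1 (chromosome 4, 47208161 to 47313167, plus strand, GENCODE M21 on GRCm38) had 342, 329, 443 and 275 normalized counts in the fasted libraries and 971, 935, 1185, 1064 and 812 in the fed libraries. The highest fasted library lay well under the lowest fed library. The log2 change was -1.52 (SE 0.14, adjusted p = 0.000154), which is a level 2.87-fold lower in fasted kidneys, and the chain was called in all 21 alternative settings of the fit. Col18a1 had 5809, 6378, 6721 and 6388 normalized counts in the fasted and 6449, 6977, 7577, 5610 and 6144 in the fed libraries, with full overlap. Its log2 change was -0.05 (95% interval -0.24 to 0.15). Per kb, Col18a1 stood at 901 ± 53.9 in fasted and 933 ± 108 in fed kidneys, and Col15a1 at 54.7 ± 11.1 and 156 ± 22.1.

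Among the 11 laminin chains Lamb2 was called, higher in fasted kidneys, and the median log2 change of the family was 0.08. Lamb2 encodes the beta 2 chain of the glomerular basement membrane and of vessel walls. It had 2818, 2860, 2611 and 2819 normalized counts in the fasted libraries and 2235, 2602, 2055, 2135 and 2516 in the fed libraries. The lowest fasted library, Fasted 3, exceeded the highest fed library, Fed 2, by a margin smaller than the spread of the fed group. The log2 change was 0.27 (SE 0.08, adjusted p = 0.0490). The call lay at the threshold: it was lost in 13 of 21 alternative settings, with an adjusted p of 0.052 by edgeR, 0.15 without Fasted 1 and Fed 3, and up to 0.13 without a single library (Fasted 4). The libraries whose removal ended it were each of the 4 fasted ones, Fed 1, Fed 3 and Fed 4.

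The other chains of the glomerular trimer were Lama5 and Lamc1. Lama5, the main alpha chain of adult epithelial basement membranes, had 7229, 8430, 8048 and 8581 normalized counts in the fasted libraries and 5847, 6863, 6944, 6819 and 7528 in the fed libraries. Fasted 1 lay under Fed 5, and the other fasted libraries lay above all fed ones. The log2 change was 0.25 (95% interval 0.07 to 0.43, adjusted p = 0.077), and the adjusted p was 0.042 without Fed 5 and 0.037 by DESeq2. Lamc1, the gamma chain shared by most laminins, had 2339 ± 79.8 in fasted and 2405 ± 97.9 normalized counts in fed kidneys and a log2 change of -0.04 (-0.16 to 0.08). Lamb1, the most abundant laminin chain per kb, had 737 ± 41.7 per kb in fasted and 808 ± 65.8 in fed kidneys, and a log2 change of -0.13 (-0.29 to 0.03).

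Lama3 and Lamb3, chains of epithelial laminins, did not point one way. Lama3 had 2918, 3185, 3563 and 2744 normalized counts in fasted libraries and 3607, 4107, 3183, 3898 and 4651 in fed libraries, a log2 change of -0.32 (adjusted p = 0.087; 0.033 without Fed 3). Lamb3 had 63.2, 157, 62.3 and 50.7 in fasted libraries and 40.2, 49.7, 43.4, 44.0 and 42.8 in fed libraries. Every fasted library exceeded every fed one, and Fasted 2 stood far above the rest. Its log2 change was 0.76 (95% interval 0.14 to 1.37, adjusted p = 0.11). Lama4, a chain of endothelium and mesenchyme, had 378, 226, 289 and 328 in the fasted and 425, 441, 314, 426 and 399 in the fed libraries. Its log2 change was -0.41 (adjusted p = 0.11; 0.049 without Fed 3 and 0.026 without Fasted 1 and Fed 3). Lama1, Lama2 and Lamc3 had log2 changes of -0.09, 0.14 and 0.08, with adjusted p-values of 0.73, 0.62 and 0.81.

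The fibrillar class was split: Col1a1 was lower and Col27a1 higher in fasted kidneys, and the other 7 tested chains were not called. Col1a1 (chromosome 11, 94936224 to 94953042, plus strand) encodes the alpha 1 chain of type I collagen, which is present in 2 copies in the type I trimer. It had 472, 535, 654 and 431 normalized counts in the fasted libraries and 988, 694, 1359, 909 and 902 in the fed libraries. The fasted libraries all lay under the fed ones, with the narrowest gap at Fed 2. Col1a1 changed by -0.87 on the log2 scale (SE 0.17, adjusted p = 0.0103), a level 1.83-fold lower, and it was called in all 21 alternative settings. Its trimer partner Col1a2 had 1971, 2031, 2412 and 1528 in the fasted and 2135, 2293, 2644, 1775 and 2044 in the fed libraries. These overlapped, and the log2 change was -0.14 (95% interval -0.44 to 0.16, adjusted p = 0.55). Col1a1 thus stood at 24.0 to 28.2 normalized counts per 100 of Col1a2 in fasted libraries and at 30.3 to 51.4 in fed libraries, a description that was not tested.

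Col3a1, the type III chain of vessels and interstitium, had 935, 914, 1581 and 804 normalized counts in the fasted libraries and 1696, 1630, 1805, 1609 and 1197 in the fed libraries. Fasted 3 stood with the fed libraries, and the other 3 fasted libraries lay under all of them. The log2 change was -0.62 (SE 0.18, adjusted p = 0.0510). The call was made in 6 of the 21 alternatives, including those without Fasted 3 (adjusted p = 0.0047), without Fed 5 (0.025) and by DESeq2 (0.018). The type V chains Col5a1 and Col5a2, which help start fibrils, had log2 changes of -0.30 (95% interval -0.56 to -0.04, adjusted p = 0.13) and -0.40 (-0.75 to -0.04, adjusted p = 0.14), and Col5a1 passed without Fed 4 (adjusted p = 0.044). Col5a3 had a log2 change of 0.03 (-0.34 to 0.41). The low chains Col24a1 and Col11a2 had log2 changes of -0.36 (-0.79 to 0.07) and -0.71 (-1.54 to 0.12), at group means of 13.3 to 27.3 normalized counts.

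Col27a1 moved the other way. It encodes a fibrillar chain known mainly from cartilage, and its mean per kb over the 9 libraries was the highest of the fibrillar chains. Col27a1 (chromosome 4, 63214004 to 63334991, plus strand) had 4804, 4287, 5544 and 4540 normalized counts in the fasted libraries and 1716, 2670, 3376, 2221 and 2877 in the fed libraries. Every fasted library exceeded the highest fed one, Fed 3. This was a log2 change of 0.93 (SE 0.17, adjusted p = 0.0062), a 1.90-fold higher level, and it was called in all 21 alternative settings. Per kb it stood at 368 ± 41.7 in fasted and 197 ± 48.7 in fed kidneys. In fed kidneys Col1a2, at 175 ± 25.9 per kb, lay within that SD of Col27a1. Col27a1 made up 38.7% to 42.3% of the summed fibrillar counts per kb in fasted libraries and 15% to 25.5% in fed libraries.

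**Figure D3:**
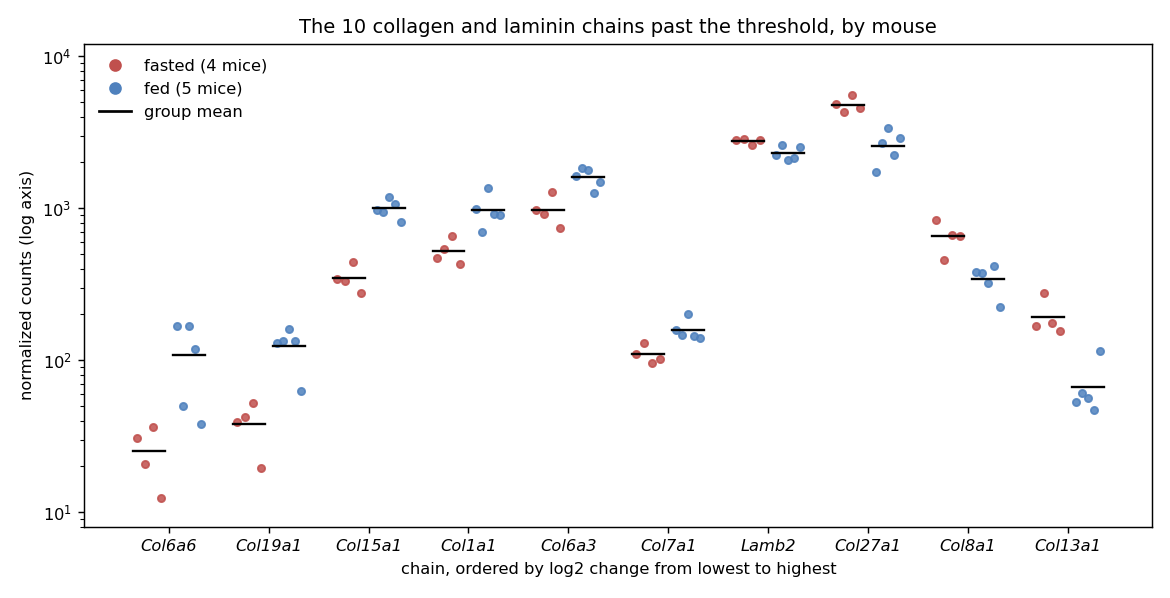
Normalized counts (log axis) in each mouse for the 10 chains with an adjusted p under 0.05, fasted to the left of fed for each chain and ordered by log2 change; black bars are group means. Col6a3 is the only one of the 10 whose groups overlap, with Fasted 3 above Fed 4.

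Set side by side, 2 of the 19 tested basement membrane chains were called, 1 higher and 1 lower, and 2 of the 9 tested fibrillar chains, also 1 higher and 1 lower. The shares were 10.5% and 22.2%, against 11% of all tested genes. Basement membrane chains were here the collagens of types IV, XV and XVIII and the laminins. The called chains Col19a1, Col7a1 and Col8a1 were counted in other classes. Col19a1 is also a chain of basement membrane zones, and the authors' basement membrane term holds Col7a1 and Col8a1. The share of basement membrane chains called thus depends on this grouping. The median log2 change of basement membrane chains was -0.05 (range -1.52 to 0.76, 7 positive and 12 negative), and that of fibrillar chains was -0.36 (range -0.87 to 0.93, 2 positive and 7 negative). Without Fasted 1 and Fed 3 these medians were 0.02 and -0.30. The 5 chains of types I, III and V that are most abundant after Col27a1 (Col1a1, Col1a2, Col3a1, Col5a1 and Col5a2) had negative log2 changes in 5 of 5 cases, with 1 of them called. That set leaves out the 2 fibrillar chains with positive changes, Col27a1 and the type V chain Col5a3 (0.03). It was chosen with earlier results known, so its count is a description only. Of all 15098 tested genes, 7519 had negative changes. No p was computed over either class, because the chains were listed with earlier results known.

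Summed per kb, fibrillar chains amounted to 8.47 to 10.8 per 100 of the basement membrane chains in fasted libraries and to 8.08 to 9.09 in fed libraries, with overlap. With Col27a1 left out of the fibrillar sum, the ratio was 5.14 to 6.56 in fasted and 6.24 to 7.10 in fed libraries, where Fasted 3 alone reached the fed range. Col27a1 was left out with its higher level known, and Col15a1 was kept in the basement membrane sum. The choice turns the order of the group means, from 9.32 in fasted and 8.65 in fed libraries to 5.55 and 6.80. The basement membrane sum itself was 9748 ± 422 per kb in fasted and 10677 ± 1243 in fed kidneys. Type IV chains made up 56.7% to 60.1% of it in fasted libraries and 56.3% to 66.7% in fed libraries. The fibrillar sum without Col27a1 was 542 ± 84.6 per kb in fasted and 726 ± 94.7 in fed kidneys.

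Ratios of 2 chains within a library do not depend on the size factor, and 6 such pairs were tested with an exact two-sided permutation test over all assignments of the libraries to the groups, whose smallest p is 0.0159. The pairs were listed with earlier results known, and the ratios of Col15a1 and Lamb2 rest mostly on the separation of these chains themselves. In the Lamb2 ratio the uncalled partner Lamb1, at a log2 change of -0.13, adds to the difference. The p-values of the pairs are therefore no independent support. Col15a1 to Col18a1 differed by -1.48 on the log2 scale (adjusted p = 0.0317 over the 6 pairs, exact test), with 4.30 to 6.59 normalized counts of Col15a1 per 100 of Col18a1 in fasted libraries and 13.2 to 19 in fed libraries. Lamb2 to Lamb1 differed by 0.40 (adjusted p = 0.0317, exact test), with 37.2 to 39.2 per 100 in fasted and 25.9 to 32.6 in fed libraries. Fasted libraries were separated from fed ones in both ratios. Lama5 to Lamc1 differed by 0.29 (adjusted p = 0.0317, exact test), with 318 to 371 per 100 in fasted and 255 to 316 in fed libraries. The groups of this ratio nearly met, at 318 in Fasted 1 and 316 in Fed 5, and Lama5 itself was not called and overlapped. Any pair whose groups do not overlap gets the smallest p of this test, however narrow the gap. The balance of the glomerular against the general type IV chain, Col4a3 to Col4a1, differed by -0.26 (unadjusted p = 0.14, adjusted p = 0.21, exact test), at 86.6 to 117 per 100 in fasted and 90.5 to 142 in fed libraries. Col4a5 to Col4a1 differed by -0.03 (adjusted p = 0.75, exact test) and Col3a1 to Col1a1 by 0.25 (adjusted p = 0.27, exact test). These ratios are of counts that are not divided by length, and they are read between groups only.

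**Figure D4:**
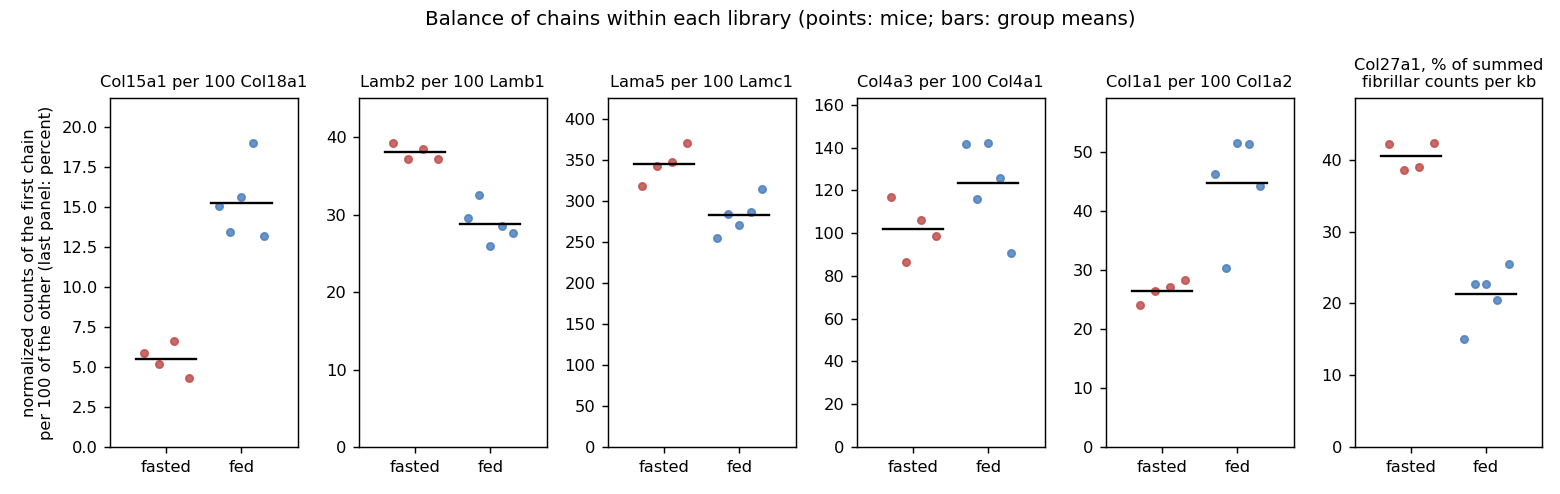
Balance of chains within each library, fasted to the left of fed: 5 panels give normalized counts of one chain per 100 of another, and the last gives Col27a1 as a percent of the summed fibrillar counts per kb. Points are mice and bars are group means, and all y axes start at 0. The groups are apart in each panel except Col4a3 per 100 Col4a1.

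Among the other collagens the changes ran in both directions. Of the 9 FACIT collagens, which sit on the surface of fibrils, 5 were tested and 1 was called. Col19a1, a FACIT chain of basement membrane zones, had 39.1, 42.4, 51.8 and 19.6 normalized counts in the fasted libraries and 130, 133, 160, 134 and 62.7 in the fed libraries. All fasted libraries lay under Fed 5, the lowest fed one. Col19a1 changed by -1.69 on the log2 scale (SE 0.31, adjusted p = 0.0071), and it was called in all 21 alternative settings. Col12a1, Col14a1, Col16a1 and Col20a1 had log2 changes of -0.21, -0.18, -0.22 and 0.32 and adjusted p-values of 0.27 to 0.57.

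In the beaded filament and short-chain class, 1 of 9 tested chains was higher and 2 were lower. Col6a3, a type VI chain of the filaments around interstitial cells, had 969, 918, 1270 and 742 normalized counts in the fasted libraries and 1631, 1837, 1780, 1249 and 1482 in the fed libraries. Fasted 3 lay just above Fed 4. Col6a3 changed by -0.72 on the log2 scale (SE 0.15, adjusted p = 0.0124; 0.056 without Fasted 1 and Fed 3). Its partners Col6a1 and Col6a2, which join it in the classic type VI trimer, had log2 changes of -0.09 (95% interval -0.38 to 0.21) and -0.34 (-0.79 to 0.11). Col6a6, an alternative to alpha 3, had 30.7, 20.6, 36.4 and 12.4 in the fasted and 168, 49.7, 168, 118 and 37.8 in the fed libraries. The fed group spread over a wide range, and Fed 5 lay just above the highest fasted library. Col6a6 changed by -1.93 on the log2 scale (SE 0.48, adjusted p = 0.026). The chain missed the threshold in 5 of the 21 alternatives, including those without Fasted 2 (0.066), Fasted 4 (0.084), Fed 1 (0.063) or Fed 4 (0.051).

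Col8a1, a network-forming chain of vessel walls, had 838, 454, 667 and 657 normalized counts in the fasted libraries and 379, 373, 320, 418 and 223 in the fed libraries. Fasted 2 stood nearest to the fed range but above it. The log2 change was 0.93 (SE 0.20, adjusted p = 0.0142; 0.069 without Fasted 1 and Fed 3). Its partner Col8a2, with group means of 12.4 in fasted and 18.6 in fed kidneys, had a log2 change of -0.66 (95% interval -1.50 to 0.18). Col10a1, a chain of growth plate cartilage, had 239, 194, 181 and 209 in the fasted and 119, 168, 163, 151 and 175 in the fed libraries. The groups did not overlap, and the log2 change was 0.41 (adjusted p = 0.072; 0.037 by DESeq2). Col6a4 and Col6a5 were not called, at log2 changes of -0.14 and -0.42.

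Of the transmembrane and other collagens, Col13a1 was higher and Col7a1 lower in fasted kidneys, with 6 chains tested. Col13a1 (chromosome 10, 61838236 to 61979108, minus strand) encodes a transmembrane collagen known from the neuromuscular junction. It had 166, 276, 175 and 156 normalized counts in the fasted libraries and 52.8, 60.8, 56.6, 47.2 and 114 in the fed libraries. Fed 5 stood apart from the other fed libraries and still lay under every fasted one. Col13a1 changed by 1.56 on the log2 scale (SE 0.26, adjusted p = 0.0038), a 2.96-fold higher level, and it was called in all 21 alternative settings. Col7a1, the chain of the anchoring fibrils of skin, had 110, 129, 95.9 and 101 in the fasted and 159, 146, 200, 144 and 140 in the fed libraries. The groups did not overlap. Col7a1 changed by -0.53 on the log2 scale (SE 0.14, adjusted p = 0.031). The chain missed the threshold in 6 of the 21 alternatives, including those without Fasted 1 (0.069), Fasted 3 (0.087), Fasted 4 (0.095), Fed 1 (0.069) or Fed 2 (0.052). Col17a1, Col23a1, Col25a1 and Col26a1 were not called.

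The genes around the chains were read from lists by function. For these lists and the marker lists below, the share to set beside the counts is the 11% of all tested genes called. Of 18 tested basement membrane partners 2 were higher and 3 lower in fasted kidneys. Pxdn, peroxidasin, which cross-links type IV collagen, had 2203, 2604, 2341 and 2225 normalized counts in the fasted and 1374, 1814, 1308, 1365 and 1440 in the fed libraries, with no overlap (log2 change 0.69, SE 0.10, adjusted p = 0.0016). Hspg2, perlecan, had 5366 ± 208 in fasted and 6640 ± 513 in fed kidneys (-0.30, SE 0.07, adjusted p = 0.018). Npnt, nephronectin, had 2147 ± 313 and 3322 ± 747 (-0.61, SE 0.16, adjusted p = 0.036).

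Of 13 genes that process and cross-link procollagen, Lox was higher and Pcolce lower. Lox, lysyl oxidase, which starts the cross-links of fibrils, had 395, 278, 284 and 458 normalized counts in the fasted and 96.0, 105, 94.7, 69.8 and 150 in the fed libraries, far apart (log2 change 1.78, SE 0.22, adjusted p = 0.000666). Pcolce, which speeds removal of the procollagen end, had 1101 ± 82.8 in fasted and 1548 ± 165 in fed kidneys (-0.49, SE 0.09, adjusted p = 0.0060). Of 19 tested genes for making and secreting collagen, Leprel4, a part of the complex that modifies collagen lysines, was called at 1.37 (SE 0.21, adjusted p = 0.0030). The collagen chaperone gene Serpinh1 had 1741 ± 253 in fasted and 2229 ± 299 in fed kidneys and was not called (adjusted p = 0.080).

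Of 15 interstitial matrix partners, Dcn and Ctgf were higher and 0 lower. Dcn, decorin, a proteoglycan that binds type I fibrils, had 1105, 1166, 1370 and 1187 normalized counts in the fasted and 750, 789, 541, 569 and 777 in the fed libraries (log2 change 0.83, SE 0.13, adjusted p = 0.0025). Ctgf, a matricellular factor, had 2957 ± 300 in fasted and 1678 ± 411 in fed kidneys (0.85, SE 0.16, adjusted p = 0.0087). Of 14 tested genes of matrix breakdown, Mmp14, a membrane-bound collagenase, was called at 0.53 (adjusted p = 0.025). Of 18 genes of fibrosis signals, Tgfbr1 was higher (0.23, adjusted p = 0.046) and Tgfb2 (-0.87, adjusted p = 0.024) and Pdgfc (-0.37, adjusted p = 0.042) lower. Of the 17 collagen and laminin receptors, 0 were called by limma, edgeR or DESeq2, and 3 had an unadjusted limma p under 0.05. The median log2 changes of these 7 lists lay between -0.15 and 0.11.

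**Figure D5:**
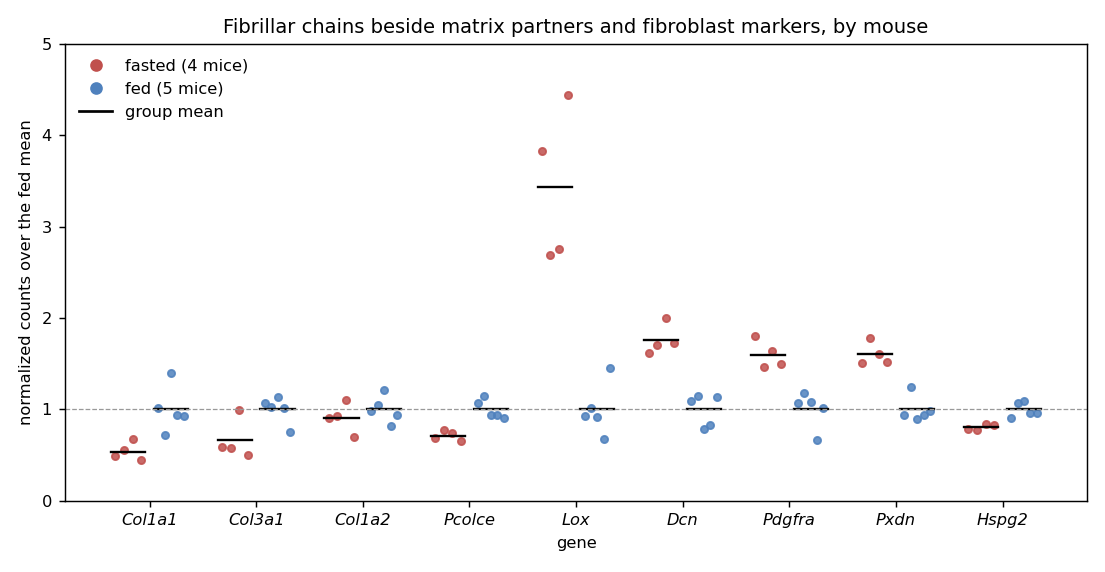
Normalized counts in each mouse divided by the mean of the fed mice for 3 fibrillar chains, the procollagen genes Pcolce and Lox, the fibroblast markers Dcn and Pdgfra, and the basement membrane genes Pxdn and Hspg2, fasted to the left of fed; bars are group means. Col1a1, Pcolce and Hspg2 lie under 1 in all fasted mice, while Lox, Dcn, Pdgfra and Pxdn lie above it. Dcn and Pdgfra are the 2 called of 5 tested fibroblast markers. The tested markers Dpt, Lum and Scara5 were not called and are not drawn.

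Markers of cell types that make these chains were read beside the results. The markers of the kidney cortex were present, podocyte, proximal tubule and endothelial lists among them. Of 5 tested fibroblast markers 2 were higher in fasted kidneys, Dcn and Pdgfra (log2 change 0.70, SE 0.15, adjusted p = 0.013), and 0 lower. The summed level of the 6 fibroblast markers was 3693 to 4189 normalized counts in fasted and 1807 to 2878 in fed libraries, without overlap, with Mfap5 too low to be tested. Dcn and Pdgfra carried most of this sum, and Dpt, Lum and Scara5 were not called, at log2 changes of 0.33, 0.29 and -0.30 (adjusted p = 0.32, 0.52 and 0.37). Between the groups, Col1a1 was thus lower in fasted kidneys and Dcn and Pdgfra higher. A relation across single libraries was not tested. Of 6 podocyte markers 0 were called by limma, with sums of 10307 to 11754 in fasted and 10138 to 13264 in fed libraries. Of 8 endothelial markers Pecam1 was higher and Kdr lower, with sums of 14937 to 15908 and 13706 to 15728. The 7 smooth muscle and pericyte markers summed to 4962 to 5580 in fasted and 3728 to 5982 in fed libraries, with 0 called. The 7 proximal tubule markers summed to 373890 to 443026 in fasted and 444370 to 630315 in fed libraries, without overlap, and 1 of them, Slc34a1, was lower. The 5 adipocyte markers summed to 3.84 to 73.3 in fasted and 2.15 to 7.89 in fed libraries, with Plin1 alone tested and higher. Plin1 had 6.51, 70.7, 1.92 and 10.7 in fasted and 0, 1.84, 0, 0 and 0 in fed libraries. It reached the filter only through the fasted group, mostly through Fasted 2, so its call is no evidence of a difference. The 4 intercalated cell markers summed to 2590 to 2898 in fasted and 3057 to 3584 in fed libraries, without overlap, with Slc4a1 and Foxi1 lower. The 4 hepatocyte markers summed to 2522 to 9737 in fasted and 333 to 14017 in fed libraries, a wide range in both groups. The part of these markers in the changes of the chains was not tested.

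In the authors' deposited table, 15 chains had an adjusted p under 0.05, and all 10 chains called here were among them. The other 5 in the authors' deposited table were Col3a1, Col10a1, Lama3, Lama5 and Lamb3. In the authors' deposited table of annotation terms for changed genes, the term basement membrane held 10 genes at a fold enrichment of 1.95 with a Benjamini-adjusted p-value of 0.44, and 3 of its genes were chains described here, Col7a1, Col15a1 and Col8a1. In the same deposited table of the authors, the keyword extracellular matrix held 23 genes at 1.58-fold (Benjamini-adjusted p-value 0.24), 8 of them chains.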

How the data were processed

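The table of 23420 genes holds 9 kidney cortex libraries, 4 fasted and 5 fed mice, grouped per the labels. The members and lists were chosen with earlier results of these data known. FastQC, TopHat2 2.0.9, HTSeq 0.9.1 and DESeq2 (version given as 3.5) stand in the tool list of the submitters' processing notes, whose builds are mm10 and hg19; the annotation and the strand setting are not given in the sources used here. The deposited signal is reads per gene divided by the authors with 1 size factor for each library. All 161194 values above 0 were whole multiples of their library's step within 0.01 reads, so reads were recovered for alternatives. The authors' deposited log2 fold changes, score (change over its standard error), p-values and adjusted p-values, and the fold enrichment ratio of deposited annotation terms, were only quoted.

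Groups were compared with limma 3.58.1, trend on (R 4.3.3), as a two-sided test of log2(value + 1) over genes averaging 10 or more, with Benjamini-Hochberg adjustment over all genes tested; fold changes of low genes are understated by the pseudocount. Named genes were every called chain, every tested basement membrane, laminin and fibrillar chain, chains just beside the filter, and up to 3 called genes per partner list; others, such as Col12a1, Serpinh1 and Col10a1, were named after their values were seen. 1 laminin chain is not reported here by name and stays in the counts. Exon lengths and positions came from GENCODE M21 (GRCm38) by Ensembl identifier, for 55 of 55 chains. A length covers all annotated exons of a gene, whether or not they are used in kidney. 1 library per mouse was read as 1 replicate. Alternatives were other filters, pseudocounts, scalings (TMM, upper quartile), limma without trend, edgeR 4.0.16, DESeq2 1.42.0 and voom on recovered reads, and libraries left out. The limma fit was also run on simulated counts with the same dispersion for every gene. That setting is simpler than these data, so it does not give the error rate of the fit here.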

Additional observations from a re-analysis of the deposited data

Results flagged for a closer look

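Of 96 groups of 4 or 5 libraries (48 chains, fasted and fed), 7 held a library whose gap to its nearest neighbour was large against the range of the group, by Dixon's 95% criterion; chance flags about 1 in 20 groups. In fasted kidneys these were Fasted 2 for Col13a1 (276 normalized counts, the next at 175) and for Lamb3 (157, the next at 63.2), and Fasted 3 for Col3a1 (1581, the next at 935) and, as the lowest, for Lamb2 (2611, the next at 2818). In fed kidneys they were Fed 5 for Col13a1 (114, the next at 60.8), Fed 4 for Col25a1 (92.3, the next at 42.8) and, as the lowest, Fed 4 for Col6a2 (249, the next at 405).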

How the results depend on the processing

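Over 21 alternative settings of the fit, Col15a1, Col1a1, Col27a1, Col19a1 and Col13a1 kept their call and direction in all, Col6a3 and Col8a1 lost it in 1, Col6a6 in 5, Col7a1 in 6 and Lamb2 in 13. In these settings no called chain changed direction. The count over all genes was 1656, and it was 2702 by voom, 861 to 1956 with 1 library left out, 1068 without Fasted 1 and Fed 3, 2628 at a threshold of 0.1 and 538 at 0.01. The count of chains was 10 (7 to 13 with 1 library left out), with 6 without Fasted 1 and Fed 3 (2 higher) and 4 at 0.01 (2 higher, 2 lower); DESeq2 called 7 higher. The cause was not tested. With 1 library left out, the log2 difference lay between -1.57 and -1.37 for Col15a1 to Col18a1, between 0.37 and 0.45 for Lamb2 to Lamb1 and between 0.25 and 0.33 for Lama5 to Lamc1, with adjusted p-values of 0.0571 or 0.0714, since fewer libraries raise the smallest p the exact test can give. Without Fasted 1 and Fed 3 they were -1.51, 0.35 and 0.31 (adjusted p = 0.114 each). The 4 and 5 mice limit what a missed threshold can show, and levels under 30 normalized counts rest on few reads. No paired analysis was possible because the labels give numbers that name mice and pair none across groups.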
